A study of Mus musculus with 6 samples.

Results

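The cyclins that act in the first gap phase of the cell cycle, G1, and the kinases and phosphatase they work with were followed in differentiating C2C12 cells. The set held 9 genes, Ccnd1, Ccnd2, Ccnd3, Cdk4, Cdk6, Ccne1, Ccne2, Cdk2 and Cdc25a, of the 20659 mouse gene symbols that could be paired with a probe, and 13 probes carried their RefSeq accessions. Of the 9 genes, 8 had a probe that the scanner software marked as well above background on every array of both groups, and Ccne2 did not. The genes were chosen by their roles, but with their processed signals in si-NC and si-SYISL already known, so they count as selected on that contrast. Their differences between the groups are therefore descriptions, without a test.

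The RNA was that of C2C12, a line of mouse myoblasts that withdraws from the cell cycle and fuses into myotubes when serum is lowered. The cells had been grown with 10% fetal bovine serum, given either a control siRNA (si-NC, here also called control, 3 arrays) or an siRNA that targets SYISL, a long non-coding RNA (si-SYISL, 3 arrays), and kept for 2 days in 2% horse serum. Every sample therefore came from transfected cells of a single line on day 2 of differentiation, and the labels name neither an untransfected culture nor a second SYISL siRNA. No probe was named SYISL in the reference used here, and its own level was not analysed here.

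In dividing cells, growth factors raise the D cyclins, which bind Cdk4 or Cdk6 and begin to phosphorylate the retinoblastoma protein. Once E2F factors are freed from that protein they switch on the E cyclins, which bind Cdk2 and drive entry into S phase, while Cdc25a removes the phosphates that hold Cdk2 inactive. Myoblasts have to leave this cycle before they become myotubes. Cyclin D3 is known for staying abundant in differentiating muscle cells, where cyclin D1 usually declines.

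Within each group, arrays 1 and 3 were closer than repeated spots of a probe are on a single array, with a chi-square per probe of 0.237 for control and 0.153 for si-SYISL over 309 probes spotted 10 times, against 30.1 to 203 for the other pairs of arrays. They thus differed by less than the sampling noise. Each such pair therefore enters as its mean, the averaged sample of its group, and replicate 2 as the other sample (n = 2 for control and n = 2 for si-SYISL). Nothing in the labels says whether replicates came from different cultures, and standard errors and p-values therefore cover only the spread between these samples, which may be technical. On the control arrays 78.2% to 84.6% of spots were well above background, and on the si-SYISL arrays 87.9% to 90.6%. Precision is limited by the number of arrays. The median log2 difference of all 28553 features, si-SYISL minus si-NC, was 0.16, so differences are given relative to that median, with their standard error (SE, n = 2 samples in each group), unless stated otherwise. Signals are in intensity units after each array had been scaled to a common 75th percentile of 2500, and they are before that subtraction. The level of 1 probe cannot be set against that of another.

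Cdk2, the kinase partner of the E cyclins, was the gene of the family that differed most, with a probe signal 9.45-fold higher in si-NC than in si-SYISL. Ccnd2 came next, 2.58-fold higher in si-NC, and Cdc25a was also lower in si-SYISL, by a smaller amount. Ccnd1 and Ccnd3 were the members with higher signals in si-SYISL, 1.51-fold and 1.25-fold, and the remaining members differed by less or had groups that overlapped. Of the 8 measured members, 2 lay above the median of all features and 6 below it, against 50% of all features above it, and the median of the members was -0.40. All of them but Cdk6 lay in the brighter 50% of features. There the median difference before subtraction was 0.07 and 0.08 by 25% step, below the 0.16 subtracted. The counts and the median of the members were not adjusted for brightness, whose part in them was not tested. The samples after SYISL siRNA were both higher than either control sample for 2 members, Ccnd1 and Ccnd3, where 46.3% of all features did so. Both lay below for 4 members, Ccnd2, Cdk4, Cdk2 and Cdc25a, where 15.8% of all features did so. With each array scaled to its median instead, the counts were 1 above and 5 below, beside 27.7% and 25% of all features. At an adjusted p of 0.05, limma called 0% of features (0 of 28553, with 6463 at an unadjusted p under 0.05, 4791 higher and 1672 lower), so 0 members were called. Other settings called Ccnd2 and Cdk2 (normexp background, a variance trend, the scan as a block, or without the averaged control sample) or Cdk2 alone (without control replicate 2), from which nothing is read, since the members were selected on this contrast. In RNA from whole cultures, fewer cells expressing a gene and less RNA per cell cannot be told apart.

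**Figure D1:**
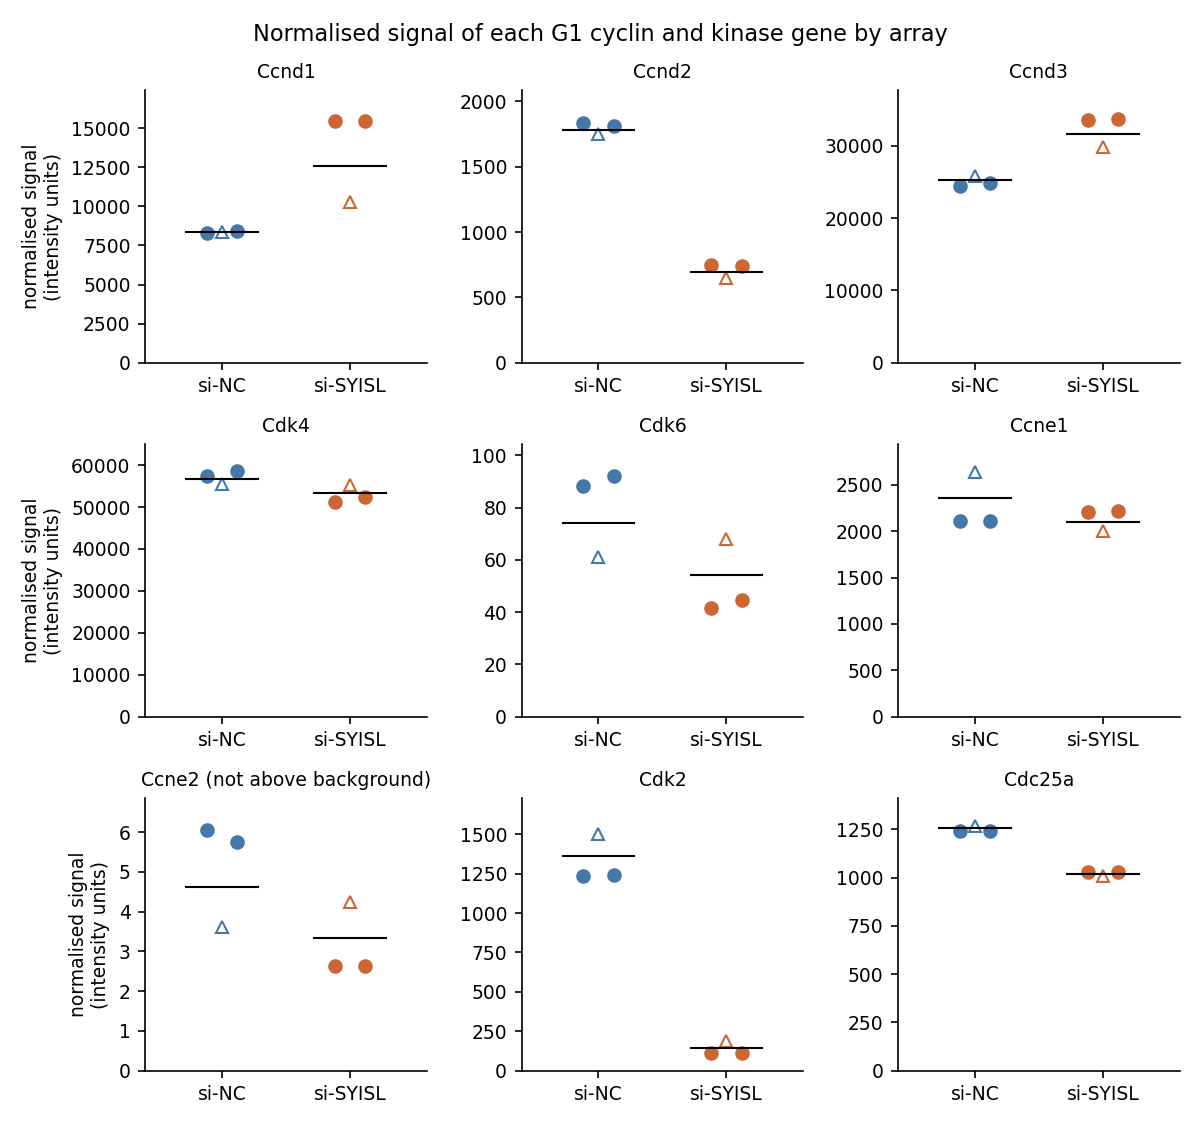
Normalised signal, in intensity units on a linear axis from 0, of the brightest probe of each gene on each array. Filled circles are replicates 1 and 3, which count as 1 sample, open triangles are replicate 2, and bars are the geometric mean of the 2 samples of a group. For Cdk2 and Ccnd2 every si-SYISL point lies far below every si-NC point, whereas for Cdk6 and Ccne1 the groups overlap, and Ccne2 was not well above background on any array.

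Among the D cyclins, Ccnd1 encodes cyclin D1, the form that answers most directly to growth factors. Its signal was 8316, 8362 and 8407 on control replicates 1 to 3, against 15460, 10270 and 15470 after SYISL siRNA. The si-NC arrays were nearly level, and both si-SYISL samples were higher, replicate 2 much less than replicates 1 and 3. The difference was 0.43 ± 0.23. It was 0.10 without the averaged si-SYISL sample and 0.77 without si-SYISL replicate 2, so its size rested on which of these samples was kept.

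Ccnd2, which encodes cyclin D2, had signals of 1835, 1749 and 1810 on control replicates 1 to 3, against 745.1, 645.8 and 740.8 after SYISL siRNA. Every si-SYISL array was below every si-NC array by more than the spread within either group (SD between samples 0.04 and 0.14, log2). The difference was -1.53 ± 0.13, and 151 of the 28553 features had a lower value. Leaving out any 1 of the 4 samples gave -1.66 to -1.38. Ccnd2 was measured by a single probe.

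Ccnd3, which encodes cyclin D3, was measured by 2 probes printed with different RefSeq transcripts. The brighter probe, printed with NM_001081636, gave 24470, 25800 and 24870 on control replicates 1 to 3, against 33580, 29760 and 33750 after SYISL siRNA. All si-SYISL arrays were higher there, with a difference of 0.16 ± 0.12. The other, printed with NM_007632, gave 0.08 ± 0.18, and its groups overlapped. The value of the brighter probe was 0.04 without the averaged si-SYISL sample and 0.30 without si-SYISL replicate 2. The 3 D-cyclin genes thus had unlike values, with Ccnd2 the only one below the median of all features. Under each of the 15 other settings Ccnd1 and Ccnd3 stayed above that median and Ccnd2 below it. Median scaling, a variance trend and the replicate block cannot change such a value, and the series matrix nearly repeats quantile normalisation. This holds wherever the 15 settings are counted, so they are not 15 separate checks.

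The D cyclins act through Cdk4 and Cdk6. Cdk4 was represented by 3 probes, all printed with the same transcript. The brightest gave 57490, 55440 and 58650 on control replicates 1 to 3, against 51150, 55240 and 52370 after SYISL siRNA. The groups were separated by a narrow margin, since control replicate 2 and si-SYISL replicate 2 were almost level. The 3 probes gave -0.36 ± 0.11, -0.25 ± 0.11 and -0.18 ± 0.17, and at the last of them the groups overlapped.

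Cdk6 was dim, in the dimmest 25% of all features, though well above background on every array. Its signal was 88.2, 61.0 and 92.2 on control replicates 1 to 3, against 41.7, 68.0 and 44.7 after SYISL siRNA. Replicate 2 was the lower sample in si-NC and the higher one in si-SYISL, so the groups overlapped. The difference of -0.62 ± 0.31 ran from -0.90 to -0.32 when 1 sample was left out and was -0.25 with normexp background correction. Before subtraction the median difference of the dimmest 25% of features was 0.36, against 0.08 in the brightest, and the part of this in the value of Cdk6 was not tested.

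**Figure D2:**
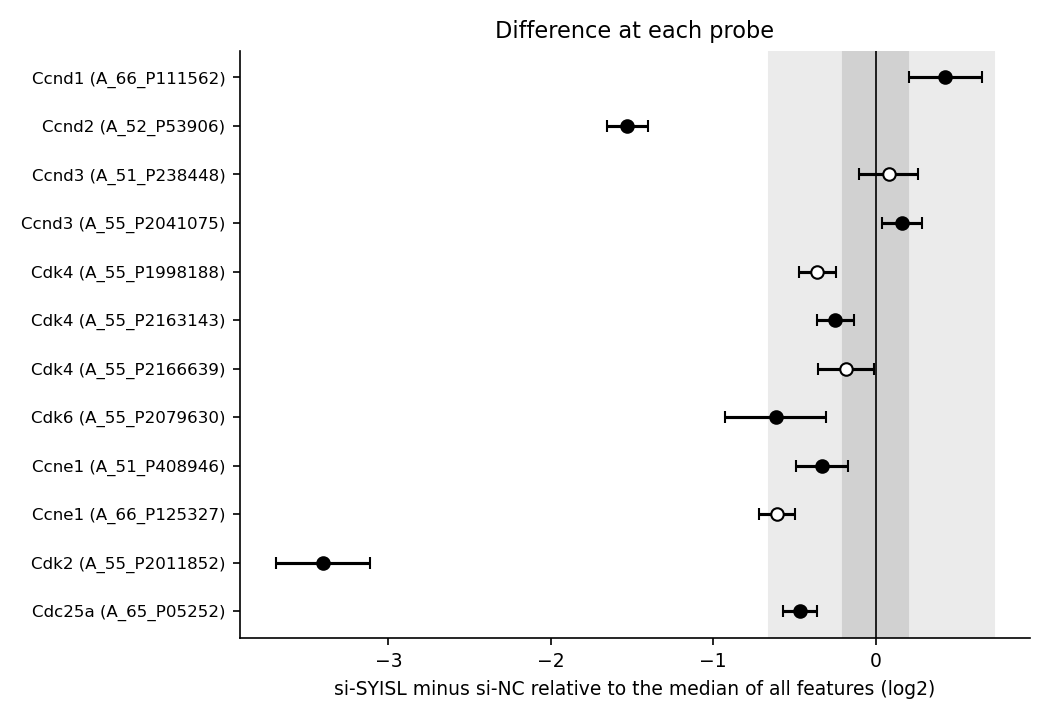
Difference at each of the 12 measured probes, si-SYISL minus si-NC relative to the median of all features (log2), with SE as bars. Filled points are the probe that represents a gene and open points its other probes; the dark and light bands hold the middle 50% and 90% of all features (-0.20 to 0.20 and -0.66 to 0.73). The probes of Cdk2 and Ccnd2 lie outside the light band, and probes of the same gene lie on the same side of 0.

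The E cyclins bring Cdk2 to its targets at the start of S phase. Ccne1, which encodes cyclin E1, gave 2111, 2637 and 2111 on control replicates 1 to 3, against 2205, 2001 and 2214 after SYISL siRNA at its brighter probe. The groups overlapped because only control replicate 2 stood above the si-SYISL arrays, and the difference was -0.33 ± 0.16. It was -0.15 without control replicate 2, -0.50 without the averaged control sample, -0.21 without si-SYISL replicate 2 and -0.18 with quantile normalisation. The dimmer Ccne1 probe, printed with the same transcript, gave 239.9, 225.1 and 230.6 in si-NC and 169.9, 169.5 and 167.5 in si-SYISL. There the groups did not overlap and the difference was -0.61 ± 0.11.

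The single probe of Ccne2, which encodes cyclin E2, was not well above background on any of the 6 arrays. Its signals of 2.63 to 6.05 lay under the dimmest signal marked well above background, which by array was 11.95 to 26.55. No fold is given for it.

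Cdk2 was measured by a single probe, printed with NM_183417, which is 1 of the 2 curated RefSeq transcripts of the gene. Its signal was 1237, 1500 and 1243 on control replicates 1 to 3, against 110.7, 187.2 and 112.0 after SYISL siRNA. The probe stayed well above background on every si-SYISL array, and the gap between the groups was larger than the spread within them (SD between samples 0.19 and 0.53, log2). The difference was -3.40 ± 0.29, and 7 of the 28553 features had a lower value. It was -3.73 to -3.06 with 1 sample left out and -2.83 with normexp background correction. Replicates 1 and 2 of both groups had been scanned together and replicate 3 of both groups separately, and within these scans the difference was -3.40 and -3.57. Replicate 3 counts as the same sample as replicate 1, so the second scan adds no separate sample and its likeness to the first is no further evidence. The files do not tell whether the probe also reads the other curated transcript, so the value describes this probe and not the sum of all Cdk2 transcripts.

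Cdc25a encodes the phosphatase that activates Cdk2 and its relatives. Its signal was 1244, 1269 and 1242 on control replicates 1 to 3, against 1030, 1007 and 1031 after SYISL siRNA. The groups did not overlap, and the SD between samples was 0.02 (log2) in each group. The difference was -0.46 ± 0.11, from -0.51 to -0.40 with 1 sample left out. It was -0.34 with normexp background correction and -0.35 with quantile normalisation.

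The sequence upstream of transcript starts listed by RefSeq was examined because E cyclins, Cdk2 and Cdc25a are textbook examples of genes under E2F control. In addition, 26 of 28 E2F target genes lay below the median of all features, where 50% of all features lay above it, as described further on. Any part of E2F factors in the differences of the members was not tested. RefSeq windows (build GRCm38.p6) were found for 6 of the 9 members, with 7 windows in all, and the 250 bases before each start were searched on both strands for TTTCCCGC, TTTCGCGC, TTTGCCGC or TTTGGCGC, spelled-out forms of the E2F motif. Of 32841 windows of that length in the table, 1.86% held a match. Among the members, the windows of Cdk2 and Cdc25a held 1 each, and those of Ccnd3, Cdk4, Cdk6 and Ccne1 held none of these letters. The match began 140 bases before the start of Cdk2 and 67 bases before that of Cdc25a, and neither overlapped a match of another motif searched. Some windows precede a start that lies within the annotated gene: those of Cdk6 and the second of Ccnd3 lie inside their genes and that of Cdc25a reaches into its gene, so the letters found or not found there do not describe the region before the gene, and the Cdc25a sequence is not shown. The Cdk2 window is shown for its match, in capitals, and that of Ccne1, whose protein binds Cdk2, for comparison; they are chr10:128705052-128705301 and chr7:38107491-38107740, both on the minus strand.
Cdk2: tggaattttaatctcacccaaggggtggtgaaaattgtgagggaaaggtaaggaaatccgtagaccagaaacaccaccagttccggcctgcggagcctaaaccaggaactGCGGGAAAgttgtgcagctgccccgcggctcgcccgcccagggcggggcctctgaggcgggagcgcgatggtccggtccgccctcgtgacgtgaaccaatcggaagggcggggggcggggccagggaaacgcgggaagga
Ccne1: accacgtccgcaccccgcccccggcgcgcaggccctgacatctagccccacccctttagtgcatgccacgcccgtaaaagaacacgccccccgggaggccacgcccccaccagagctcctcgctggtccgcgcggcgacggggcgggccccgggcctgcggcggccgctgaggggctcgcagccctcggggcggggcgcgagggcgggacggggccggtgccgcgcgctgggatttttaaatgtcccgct

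The same windows were searched for the GC box GGGCGG, which 32.7% of all windows hold. It occurred 5 times in the Cdk2 window, 2 times in that of Cdc25a, 4 times in that of Ccne1, 2 times and 1 time in the windows of Ccnd3, 1 time in that of Cdk4 and 0 times in that of Cdk6. The CCAAT box, CCAAT, was found in 33.9% of all windows, and the Cdk2 window held 1, that of Cdc25a 2 and the second of Ccnd3 1. The E box CAGCTG, found in 13% of all windows, occurred once each in the windows of Cdk2 and Cdc25a, and the cell cycle element TTTGAA, found in 16% of all windows, in no window of a member. A match describes the letters only.

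The genes outside the family whose levels over the 4 samples came closest to those of its most divergent members were found by the root mean square distance between centred log2 profiles. For Cdk2 they were Kdm3b (distance 0.20), Taf7 (0.23), Serpina3a (0.27) and Fshr (0.32). For Ccnd2 they were Hdc (0.04), Ovol1 (0.06), Adgrd1 (0.10) and Msc (0.11), the last a repressor of myogenic transcription. With 4 samples such a likeness describes these arrays only.

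The other genes of the pathway were compared between si-SYISL and si-NC to place the family in its surroundings. They were 131 genes in 8 lists by role, of which 130 were measured. At an adjusted p of 0.05 limma called 0 higher and 0 lower, and the smallest adjusted p was 0.0862. At an unadjusted limma p under 0.05, 6 of the 130 were higher and 27 lower, beside 4791 and 1672 of all 28553 features. The lists were chosen with earlier results of these data known, so the p-values of their genes are descriptive. Of the 130, 25 lay above the median of all features and 105 below, and their median was -0.25. These counts were not adjusted for brightness, whose part in them was not tested. Both si-SYISL samples were above both si-NC samples for 30 and below for 53 of the 130, that is 23.1% and 40.8%, beside 46.3% and 15.8% of all features. With each array scaled to its median, the counts were 12 above and 70 below, that is 9.23% and 53.8%, beside 27.7% and 25% of all features.

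**Figure D3:**
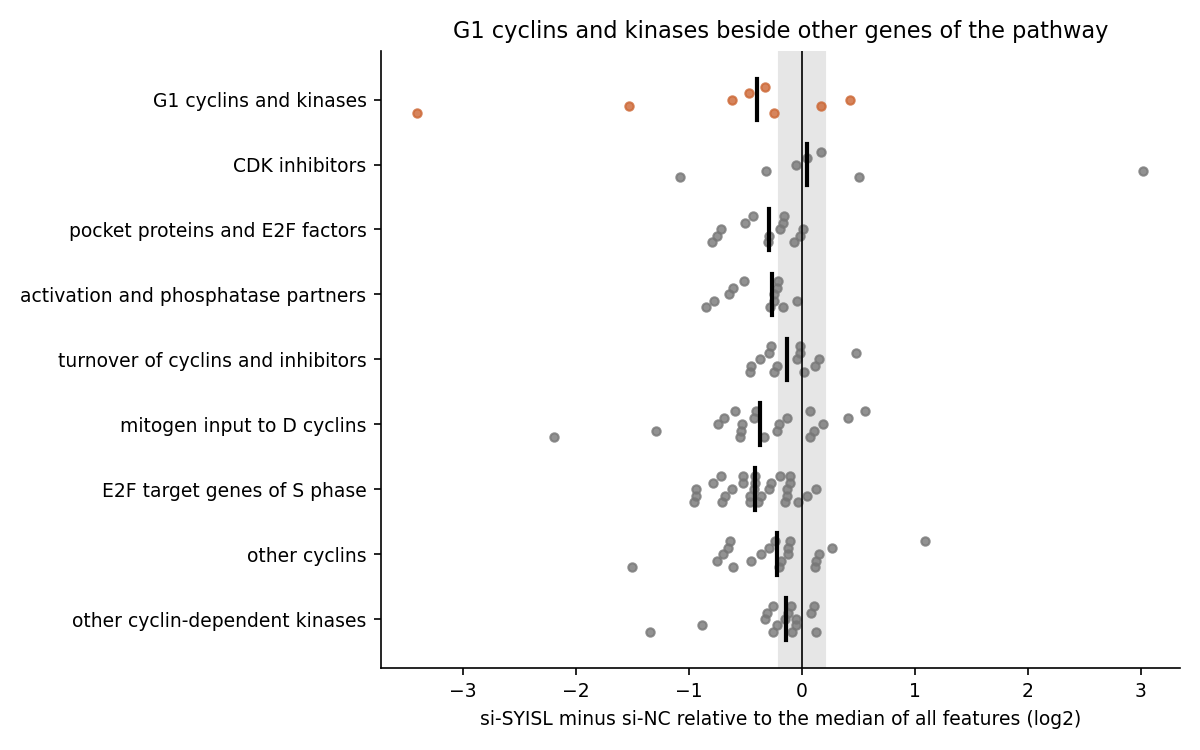
Difference of each measured gene, si-SYISL minus si-NC relative to the median of all features (log2), by list, with the list median as a black bar and the middle 50% of all features as a grey band. The members of the family are coloured and spread from -3.40 (Cdk2) to 0.43 (Ccnd1); the inhibitor at 3.02 is Cdkn2b, which was not above background in si-NC. The medians of the S-phase targets (-0.42) and of the family (-0.40) lie lowest and that of the CDK inhibitors (0.04) highest as reported; with quantile normalisation the mitogen list (-0.38) lies lowest.

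The CDK inhibitors bind the kinases of the family or their complexes. All 7 were measured, 0 were called, 4 lay above and 3 below the median of all features, and their median was 0.04. Of the 4 above, Cdkn2a and Cdkn2b were kept only through si-SYISL, being well above background on 1 and 0 of the 3 control arrays. The sign of the list median was not stable: it was -0.12 without the averaged si-SYISL sample, -0.06 with the mean of probes and -0.02 for the 5 genes left by a filter on all 6 arrays. Cdkn2b, which encodes the Cdk4 and Cdk6 inhibitor p15, was not well above background in control cells (0 of 3 arrays). Its signal after SYISL siRNA was at least 3.16-fold higher before subtraction (limma adjusted p = 0.139). With normexp background its fitted difference was the lowest of those run, 0.68. Cdkn2c, the related inhibitor p18, had signals of 4136 and 4842 in control cells against 1819 and 3093 after SYISL siRNA, a difference of -1.08 ± 0.29 (adjusted p = 0.187). Cdkn1b, which encodes p27, differed by 0.16 ± 0.14 (adjusted p = 0.245), and by 0.06 without control replicate 2 and 0.28 without the averaged control sample. Cdkn1a, which encodes p21 and rises when myoblasts leave the cycle, differed by 0.04 ± 0.14 at its brighter probe and by -0.61 ± 0.17 at the other, and its sign was positive in 13 of 15 other settings.

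The pocket proteins and E2F factors are what the kinases act on. All 13 were measured and 0 were called, with 1 above and 12 below the median of all features and a median of -0.29, which was -0.15 with quantile normalisation. E2f2, an activating factor, differed by -0.80 ± 0.13 (limma adjusted p = 0.130) and E2f8, a repressive one, by -0.75 ± 0.13 (adjusted p = 0.137). Rbl1, which encodes the pocket protein p107, differed by -0.72 ± 0.15 (adjusted p = 0.158) at its brighter probe, while its other probe gave 0.22 ± 0.15. Rb1 itself differed by -0.07 ± 0.11 and E2f1 by -0.02 ± 0.16, with limma adjusted p of 0.599 and 0.564, and their values were positive in 2 and 7 of 15 other settings.

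The partners that activate or restrain the kinases were all below the median of all features, some by less than their SE. Both si-SYISL samples were below both si-NC samples for 5 of the 12, beside 15.8% of all features. They were above for 1, Hsp90ab1 (-0.05 ± 0.12), beside 46.3% of all features. Of 12 measured genes 0 were called, and their median was -0.26, which was -0.44 without the averaged control sample and -0.40 without the averaged si-SYISL sample. Cdc25b, a phosphatase related to Cdc25a, had signals of 4701 and 4588 in control cells against 3189 and 2879 after SYISL siRNA (-0.78 ± 0.12, limma adjusted p = 0.127). Cdk7, the kinase of the CDK-activating complex, differed by -0.61 ± 0.11 (adjusted p = 0.152) and by -0.18 ± 0.17 at its dimmer probe. Wee1, which phosphorylates and holds back Cdk1 and Cdk2, differed by -0.51 ± 0.11 (adjusted p = 0.184).

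Genes for turnover of cyclins and their inhibitors were mixed. Of 15 listed 14 were measured, Skp2 having no named probe, and 0 were called, with 4 above and 10 below the median of all features and a median of -0.13. That median was -0.05 with quantile normalisation, -0.06 without the averaged control sample and -0.06 without si-SYISL replicate 2. The ubiquitin ligase part Skp1 differed by -0.46 ± 0.11 (limma adjusted p = 0.214) and the deubiquitinase Usp28 by -0.45 ± 0.11 (adjusted p = 0.232). Usp2, a deubiquitinase of cyclin D1, differed by 0.12 ± 0.11 (adjusted p = 0.228) and by 0.26 with quantile normalisation.

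Genes that carry mitogen signals to the D cyclins had a median of -0.37, which was -0.24 without the averaged si-SYISL sample and -0.23 with normexp background correction. All 20 were measured and 0 called, with 6 above and 14 below the median of all features. Mycn had the lowest value, with signals of 151.4 and 110.7 in control cells against 24.2 and 41.5 after SYISL siRNA (-2.19 ± 0.32, limma adjusted p = 0.115). It was -0.95 with normexp background correction. The immediate early factor Egr1 differed by -0.69 ± 0.11 (adjusted p = 0.130) and the growth factor receptor gene Igf1r by 0.41 ± 0.11 (adjusted p = 0.128). Myc, an activator of Ccnd2 among many other genes, differed by -0.14 ± 0.16 (adjusted p = 0.924), and by -0.0057 without the averaged si-SYISL sample and -0.25 without si-SYISL replicate 2.

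Genes of DNA replication that E2F factors switch on at the entry to S phase were the next list. All 28 were measured and 0 called, with 2 above and 26 below the median of all features and a median of -0.42. Both si-SYISL samples were below both si-NC samples for 17 of the 28 and above for 2, beside 15.8% and 46.3% of all features, and with each array scaled to its median for 17 and 0, beside 25% and 27.7%. Slbp, which binds histone messenger RNA, differed by -0.72 ± 0.11 (limma adjusted p = 0.127) and Dbf4, which activates the replication kinase Cdc7, by -0.79 ± 0.16 (adjusted p = 0.156). Uhrf1, which maintains DNA methylation behind the fork, had -0.94 ± 0.19 at its brighter probe (adjusted p = 0.148) and 0.27 ± 0.21 at the other. The list's median ran from -0.49 to -0.31 with 1 sample left out.

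The labelled cell type was checked against 12 myoblast and myotube markers, which were all well above background on all arrays. Their summed signal was 96170 to 109100 in the si-NC samples and 150400 to 156600 in the si-SYISL samples. Such sums follow the brightest probes and do not describe each marker. Myh3 had 26360 and 26070 in si-NC against 42210 and 48100 in si-SYISL, while Cdh15 had 18090 and 15300 against 16330 and 16400. Myod1, the factor that commits cells to muscle, differed by -0.78 ± 0.13 (limma adjusted p = 0.131) and Myog, which acts later, by -0.02 ± 0.17 (adjusted p = 0.602), with a positive value in 5 of 15 other settings. Of the 12 markers, 0 were called, and 7 lay above and 5 below the median of all features. The groups did not overlap for 6 that were higher in si-SYISL, where 46.3% of all features did so. They also did not overlap for 1, Myod1, that was lower, where 15.8% of all features did so. The 6, named after their values were seen, were Tnnt3 (1.24 ± 0.16), Actc1 (0.85 ± 0.14), Ckm (0.65 ± 0.15), Myh3 (0.62 ± 0.12), Acta1 (0.56 ± 0.15) and Mymk (0.38 ± 0.16), genes of the contractile apparatus, energy supply and fusion of muscle cells. Mymk was 0.20 without the averaged si-SYISL sample and 0.58 without si-SYISL replicate 2. Of the markers of other cell types, 3 of 4 epithelial genes were measured (Cdh1 on 0, Krt18 on 2 and Epcam on 0 of the 3 control arrays above background). Cdh1 and Krt18 were thus kept only through si-SYISL. The summed epithelial signals were 68.2 to 102.3 in si-NC and 406.8 to 582.2 in si-SYISL. The haematopoietic sums (3 of 4 measured) were 1300 to 1427 and 1299 to 1435, the endothelial sums (4 of 4) 2390 to 2589 and 2774 to 2844, and the adipocyte sums (4 of 4) 3749 to 3956 and 2984 to 3222, in si-NC and si-SYISL. Endothelial Cdh5 and adipocyte Adipoq were also kept only through si-SYISL, above background on 2 and 1 of the 3 control arrays. The adipocyte sums were mostly Pparg (3565 and 3738 in si-NC, 2998 and 2716 in si-SYISL). Of the 4 adipocyte genes, 2 lay above and 2 below the median of all features. The epithelial sums, which include 2 genes kept only through si-SYISL, were higher in si-SYISL. The 12 muscle markers went both ways, with 7 above and 5 below the median of all features, and the members of the family had no common direction. The part of these markers in the differences of the members was not tested.

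**Figure D4:**
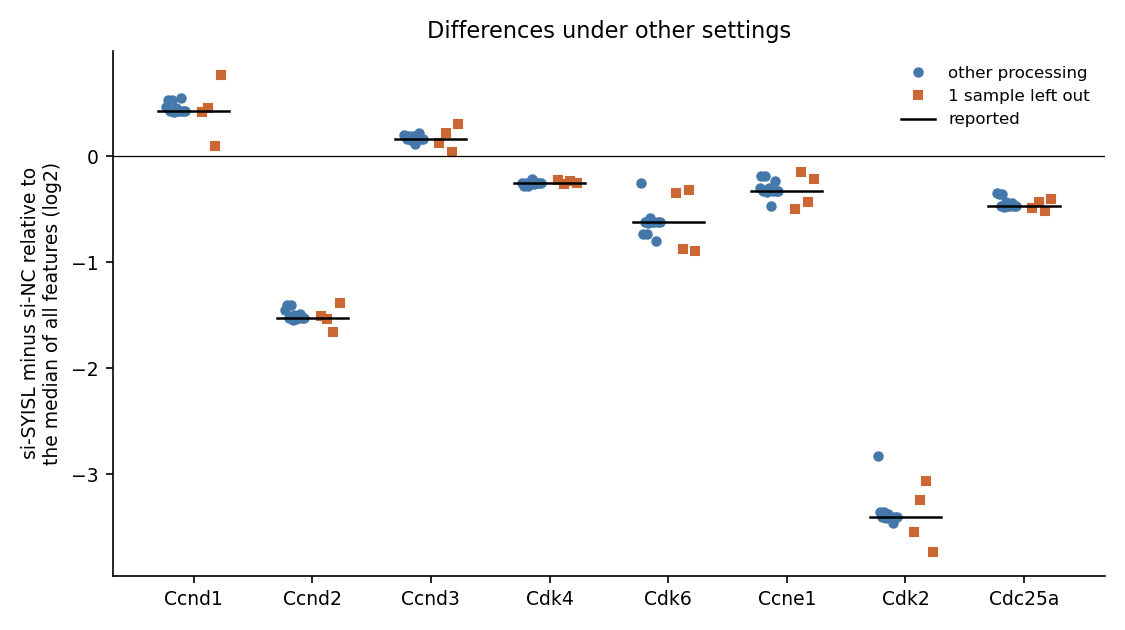
Difference of each measured member, si-SYISL minus si-NC relative to the median of all features (log2), as reported (black line), under 11 other ways of processing (circles) and with 1 of the 4 samples left out (squares). Every member kept its side of 0 under all 15, though median scaling, a variance trend and the replicate block cannot move a value. The series matrix nearly repeats quantile normalisation. Ccnd1 (0.10 to 0.77) and Ccnd3 (0.04 to 0.30) moved most relative to their size, and Cdk2 stayed between -3.73 and -2.83.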

How the data were processed

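Gene expression was measured with total RNA (1 µg per sample) on single-colour Agilent arrays. Per array the authors deposited a scanner file with intensity values, made with Feature Extraction (11.0.1.1 per the file headers, 10.5.1.1 per the submitters' processing notes). The signal is background-subtracted and detrended within each array, not normalised between arrays, and flags (unit other, per the file headers) mark spots above background, saturated spots (0 here) and outliers. The deposited series matrix holds log2 values with nearly equal quantiles (median 8.58 on each array), whose normalisation is not given in the sources used here, and served as an alternative. The array design was annotated on mm9.

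In R 4.3.3 (data.table version 1.17.8), each array's 75th percentile of log2 signal over 43020 non-control spots was subtracted, outlier spots were left out and spots of a probe averaged. Of 39429 probes, 27234 were named through their RefSeq accession (RefSeq build GRCm38.p6). Probes well above background on all 3 arrays of a group were kept, and the brightest probe represented a gene. This left 28553 features (18633 genes and 9920 unnamed probes). Where a group lay below background, the fold is a lower bound against the dimmest probe well above background on each array. Replicates 1 and 3 of each group were averaged as 1 sample. Groups were compared over all features with limma 3.58.1 (two-sided, Benjamini-Hochberg, 0.05). Simulated data with large planted changes were used to check the size and direction of its differences, not its calling at this threshold.

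All 9 members are named, the 3 genes with the smallest p of each pathway list, Cdkn1a, Rb1, E2f1, Myc, Myod1, Myog, and the 4 genes nearest in profile to the 2 members that differed most. The members and lists were chosen with earlier results of these data known. Alternatives were normexp background (offset 50, on median pixel intensity), quantile and median scaling, the series matrix, all probes unfiltered, only probes above background on all 6 arrays, the mean of probes and every probe, a variance trend, 6 arrays as 6 samples, a replicate or scan block, and each sample left out. Scripts also used Python 3.11.15 with pandas 2.3.3, numpy 2.4.6 and matplotlib 3.10.9.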

Additional observations from a re-analysis of the deposited data

How the results depend on the processing

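The median of the 8 measured members ran from -0.47 to -0.27 over the 16 alternatives, and 6 or 7 members had groups that do not overlap (8 of 12 probes where every probe was counted on its own). Over the same alternatives 27.7% to 63.1% of all features lay above without overlap and 14.2% to 26.2% below. Both the count of members and these shares rose against the reported setting when a sample was left out, so the count does not show stability. The number of features called by limma did depend on the processing. It was 0 as reported and also with quantile normalisation, the series matrix, unfiltered probes, probes above background on all 6 arrays, the mean of probes and every probe. It was 187 with normexp background, 1 with the median of each array, 904 with a variance trend, 83 with the scan as a block and 9762 with 6 arrays as 6 samples, which counts arrays of the same sample as independent. With 1 sample left out it ran from 0 to 1381, the highest without the averaged control sample; these fits take the spread from the other group alone and assume that the lone sample varies like it, so their counts say little of stability. Of the members, 2 were called with normexp background, a variance trend or the scan block, 5 (Ccnd1, Ccnd2, Ccnd3, Cdc25a and Cdk2) with 6 arrays as 6 samples, and 0 to 2 with 1 sample left out. The replicate block gave 0 features and 0 pathway genes (smallest adjusted p 0.189). Deviations of replicate 2 in the 2 groups had a correlation of -0.03 across features, so no broad shift was shared by samples of like number. With 1 such deviation in each group, this cannot tell whether those samples were prepared together. Of the pathway genes, 0 were called as reported, 9 with a variance trend, 51 with 6 arrays as 6 samples, and 0 to 4 with 1 sample left out, the highest without the averaged control sample. Apart from the 6 arrays, whose construction shows it, the cause was not tested. With 2 residual degrees of freedom and single probes for Ccnd1, Ccnd2, Cdk6, Cdk2 and Cdc25a, small differences of these genes were not resolvable, and signal over background limits Cdk6 and Ccne2.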

Other observations

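Cyclins and kinases outside the family were described in the same way. Of the 20 other cyclins all were measured and 0 called by limma, with 5 above and 15 below the median of all features and a median of -0.22, which was -0.12 without si-SYISL replicate 2 and -0.35 with the mean of probes. Ccno, which encodes a cyclin known from multiciliated cells, had signals of 201.1 and 189.2 in control cells against 500.7 and 429.6 after SYISL siRNA, a difference of 1.09 ± 0.13 (adjusted p = 0.0862). The groups did not overlap. Ccng1, a target of p53, differed by -0.66 ± 0.11 (adjusted p = 0.137) and Ccng2, a cyclin linked to cell cycle arrest, by -0.75 ± 0.13 (adjusted p = 0.140).

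Of the 16 genes in the list of other cyclin-dependent kinases all were measured and 0 called, with 3 above and 13 below the median of all features and a median of -0.14, which was -0.03 with quantile normalisation and -0.22 with the mean of probes. Cdk1, the mitotic kinase, had the smallest p of this list, with signals of 3592 and 4482 in control cells against 2503 and 2376 after SYISL siRNA (-0.88 ± 0.15, limma adjusted p = 0.135), and its other probes gave -0.85 and -0.50. Cdk17 differed by -1.35 ± 0.37 (adjusted p = 0.185) and Cdk10 by 0.12 ± 0.15 (adjusted p = 0.299). The value of Cdk10 was -0.06 without the averaged si-SYISL sample, and that of Cdk17 ran from -1.82 to -0.86 with 1 sample left out.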
